A study of Mus musculus with 7 samples.

Results

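SINE B2, B3, B4 and RSINE RNAs are short interspersed repeats of the mouse genome, and their reads were followed here in RAW264.7 macrophages and in the extracellular vesicles (EVs) those cells release. Members were the rows of the deposited table whose name contains SINE but not SINE_B1 and that are not exon, intron or UTR pieces. This gave 8 of 3894 whole-RNA rows: SINE_B2 and SINE_B2_Mm2, 2 rows named SINE_B3 and 1 named SINE_B3A, SINE_B4, RSINE1 and SINE_ID. Rows were also summed per family as B2 (2 rows), B3 (3 rows), B4 (1 row) and RSINE (1 row). SINE_ID met the rule by its name but belongs to none of the 4 sums.

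The study asked how Dis3l2, an exoribonuclease that degrades RNAs from the 3' end after uridine addition, shapes cell and vesicle RNA. RAW264.7 is a mouse macrophage line, and every culture received doxycycline at 1 µg/ml. EV RNA came from shDis3l2 cells with the catalytically inactive transgene Dis3l2 D389N, from shDis3l2 cells with the hairpin-resistant transgene Dis3l2r, from shDis3l2 cells with an empty vector (Vector), from shDis3l2 cells alone (knockdown) and from shNS cells (non-silencing hairpin). Whole-cell RNA came from shDis3l2 and shNS cells. Before extraction, EVs were purified by density in sucrose and exposed to micrococcal nuclease, and whole-cell RNA was depleted of rRNA; the labels state no depletion for EV RNA. Reverse transcription used Induro, a group II intron enzyme, in a template switching reaction. Each of the 7 groups had 1 library, so ratios of 2 libraries carry counting error only. The labels do not say whether a line is 1 clone, and the table pairs no row with Dis3l2, so the knockdown itself was not checked here.

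SINEs move by copying their RNA back into the genome. B2 elements descend from a tRNA gene, carry an internal RNA polymerase III promoter and make an RNA that in mouse cells represses RNA polymerase II after heat shock. B3 is a relative of B2, B4 joins a tRNA-derived and a B1-related part, RSINE1 is classed with B4, and ID elements derive from another tRNA-like gene. Most genomic copies sit in introns, UTRs or between genes, so a read in such a row can come from a polymerase III transcript or from a longer RNA that contains the repeat, and these cannot be told apart here.

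Whole-RNA counts ranged from 13439408 (EV Dis3l2r) to 37041326 (shNS cells). CPM below means estimated counts in each 1000000 of these totals, and 3 counts, taken as the lowest readable level, correspond to 0.0810 to 0.223 CPM. The shNS cell library was thinner in rows detected than its partner, with 484 transcript rows above 0 and 27300 exon-piece counts, against 662 rows and 555760 counts in shDis3l2 cells. The 4 families together held 0.0164% to 0.0260% of EV counts and 0.00648% and 0.00411% of shDis3l2 and shNS cell counts. Of the 8 rows, 5 had at least 100 counts over all libraries. SINE_B2_Mm2 and the second SINE_B3 row had the counts of a transcript row (ENSMUST00000122547 and ENSMUST00000184192) to within 0.5 counts in every library; whether these are the same reads is not given. SINE_B2, SINE_B4, RSINE1, SINE_B3A and SINE_ID hold fractional counts, since the authors' estimates can split reads between near-identical sequences.

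SINE_B2 was the most abundant member in all 7 libraries. It stood at 137 CPM in D389N EVs, 176 in Dis3l2r EVs, 202 in Vector EVs, 246 in shDis3l2 EVs and 164 in shNS EVs, against 62.6 CPM in shDis3l2 cells and 40.7 CPM in shNS cells. All EV libraries lay above both cell libraries, with no overlap. The row held 83.8% of the counts of the 4 families in D389N EVs (95% exact binomial interval 82.5% to 85.0%), 89.5% to 94.6% in the other EVs, and 96.5% and 99.0% in shDis3l2 and shNS cells.

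**Figure D1:**
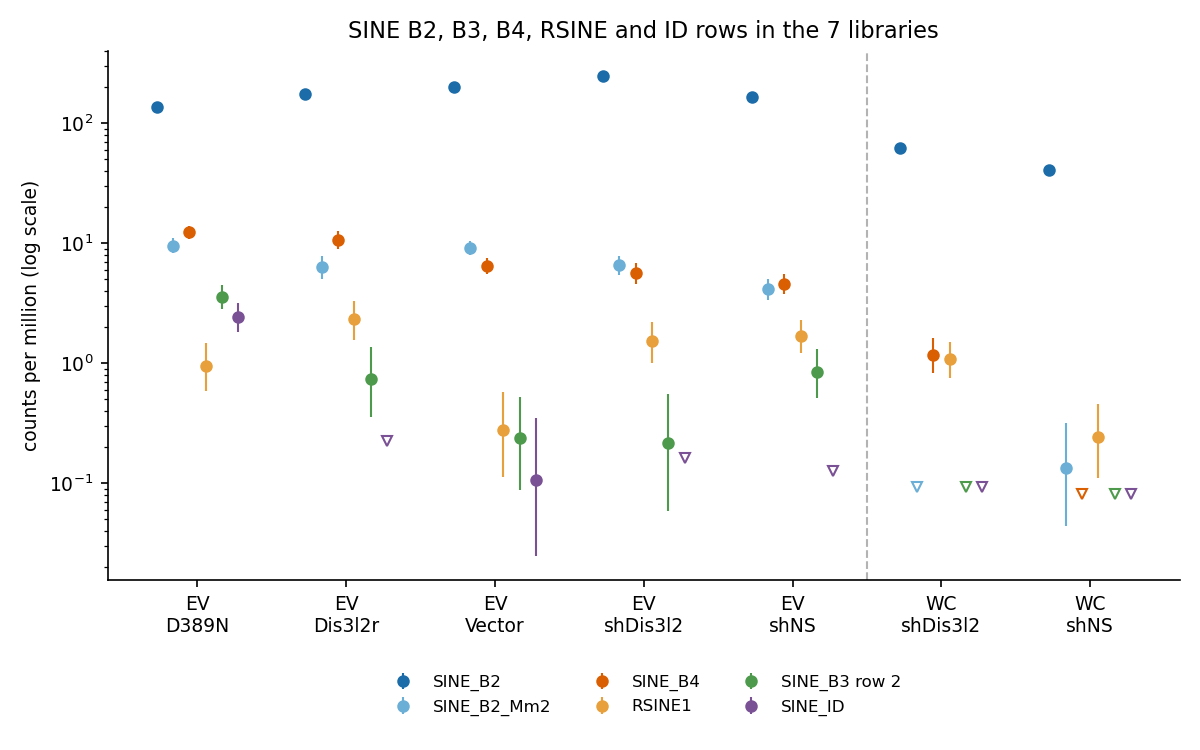
Level of 6 member rows in each library (CPM, log scale) with 95% Poisson intervals for counting error; open triangles mark rows under 3 counts, drawn at the 3-count level, and the dashed line parts EVs from whole cells (WC). SINE_B2 lies between 137 and 246 CPM in EVs and at 62.6 and 40.7 CPM in cells, and SINE_ID and the second SINE_B3 row stand highest in D389N EVs.

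SINE_B2_Mm2, the other B2 row, had 200 counts in D389N EVs, 85 in Dis3l2r EVs, 231 in Vector EVs, 121 in shDis3l2 EVs and 98 in shNS EVs, against 0 in shDis3l2 cells and 5 in shNS cells. On the CPM scale the EV libraries ran from 4.14 to 9.55, and the cell libraries were at 0 and 0.135. It made up 2.46% to 6.51% of the B2 sum in EVs, against 0% (upper 95% bound 0.182%) in shDis3l2 cells and 0.330% in shNS cells.

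SINE_B4 was in the same range of EV levels as SINE_B2_Mm2. It stood at 12.4 CPM in D389N EVs, 10.7 in Dis3l2r EVs, 6.47 in Vector EVs, 5.64 in shDis3l2 EVs and 4.56 in shNS EVs, against 1.17 CPM in shDis3l2 cells and 0.0270 CPM, a single count, in shNS cells. The EV and cell libraries did not overlap, but the 2 cell libraries were far apart. RSINE1 stood at 0.955 CPM in D389N EVs, 2.32 in Dis3l2r EVs, 0.279 in Vector EVs, 1.52 in shDis3l2 EVs and 1.69 in shNS EVs, against 1.08 CPM in shDis3l2 cells and 0.243 CPM in shNS cells. Its EV and cell values overlapped.

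B3 rows had counts in EV libraries and 0 in both cell libraries, all at low levels. The second SINE_B3 row had 75 counts in D389N EVs, 10 in Dis3l2r EVs, 6 in Vector EVs, 4 in shDis3l2 EVs and 20 in shNS EVs, and 0 in both cell libraries. The first SINE_B3 row had 6 counts in Dis3l2r EVs and 5 in Vector EVs and 0 elsewhere, and SINE_B3A had 1 count, in shDis3l2 EVs. SINE_ID had 51 counts in D389N EVs (2.42 CPM), 2 in Dis3l2r EVs, 3 in Vector EVs, 1 in shDis3l2 cells and 0 in the other libraries. The 3-count level is 0.0928 CPM in shDis3l2 cells and 0.0810 CPM in shNS cells. A count of 0 has an upper 95% Poisson bound of 0.114 and 0.0996 CPM in the same cells.

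The first comparison asked how these RNAs are divided between EVs and cells. Over all libraries, edgeR's quasi-likelihood test of 5 EV against 2 cell libraries found 4 of the 5 member rows it tested higher in EVs and 0 lower; the other 3 of the 8 members did not pass its filter on low counts. In the same fit 31.2% of the 642 rows tested were higher in EVs, 47.7% were lower and 78.8% were called in all. SINE_B2 averaged 185 ± 41.4 CPM in EVs (SD, n = 5), against 62.6 and 40.7 CPM in the 2 cell libraries, with a log2 fold change of 1.83 (SE 0.508, adjusted p = 0.00522). SINE_B2_Mm2 was higher by 6.61 (SE 1.50, adjusted p = 0.00139) and SINE_B4 by 4.12 (SE 1.37, adjusted p = 0.0149). Both passed the filter through EVs, with 0 and 5 counts of SINE_B2_Mm2 and 38 and 1 of SINE_B4 in shDis3l2 and shNS cells. Their direction was therefore nearly fixed, and their adjusted p-values are descriptions only. The second SINE_B3 row had an adjusted p of 0.00814, but with 0 counts in both cell libraries it passed the filter through EVs alone, so its direction was fixed. Over pooled counts it was at least 26.2-fold higher in EVs, set against 3 counts over both cell libraries, and at least 11.5-fold higher without D389N EVs, which held 75 of the 115 counts. RSINE1 had a log2 fold change of 0.90 (SE 1.27, adjusted p = 0.519) and was not called. The median log2 fold change was 4.12 over the 5 members and -1.33 over all rows tested; since rows pass the filter partly through the group where they are high, this median and the count of members called are descriptions only.

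The libraries on each side of that fit are different genotypes, not replicates. Several calls were lost when a cell library was left out, which leaves 1 cell library, and the part of the smaller group was not tested. Without the shNS cell library, SINE_B2 (log2 fold change 1.64), SINE_B4 (2.79) and the second SINE_B3 row (7.91) were no longer called. SINE_B2_Mm2 was still called, but the only cell library left held 0 of its counts, so its direction was fixed. Without the shDis3l2 cell library the SINE_B3 row had an edgeR adjusted p of 0.104 and SINE_B4 stood at 7.88. SINE_B2_Mm2 stood at 5.22 without shDis3l2 cells and at 10.56 without shNS cells. The size also followed the scaling: SINE_B2 stood at 1.30 with TMM scaling (trimmed mean of M values) and at 3.06 with DESeq2 size factors, both called.

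Within single lines, a row was called when it had at least 100 counts over both libraries, differed at least 2-fold and had a 95% interval (exact conditional binomial) that excluded 1. By this rule 3 of 3 members with enough counts were higher in EVs in the shDis3l2 line and 3 of 3 in the shNS line, against 33.1% and 32.0% of all rows measured in those lines. Called in either direction were 91.2% and 91.5% of all rows, so a call as such is the rule between these compartments. SINE_B2_Mm2 in both lines and SINE_B4 in the shNS line reached the count minimum almost wholly through EVs and could hardly be called lower, so the counts of 3 are descriptions. SINE_B2 was 3.94-fold higher in EVs in the shDis3l2 line and 4.03-fold higher in the shNS line, log2 ratios of 1.98 (1.90 to 2.05) and 2.01 (1.92 to 2.10). Under the other scalings the log2 ratio of the B2 sum, 2.01 and 2.04 in these lines, ran from 1.17 to 2.74 in the shDis3l2 line and from 1.79 to 3.14 in the shNS line. The lowest value in the shDis3l2 line came from leaving out the most abundant cell row, ENSMUST00000083988, which held 46.1% of shDis3l2 cell counts and 19.3% of shNS cell counts. SINE_B2_Mm2 was at least 70.8-fold higher in shDis3l2 EVs, whose cells had 0 counts, and 30.7-fold higher in shNS EVs. The SINE_B4 ratio was 4.80-fold in the shDis3l2 line and 169-fold in the shNS line, where it rests on 1 cell count and has a log2 interval of 4.89 to 12.72. RSINE1, under the count minimum in both lines, had log2 ratios of 0.49 (-0.28 to 1.25) and 2.80 (1.73 to 4.03). Whether any ratio differed between the lines was not tested, since neither line has replicates.

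**Figure D2:**
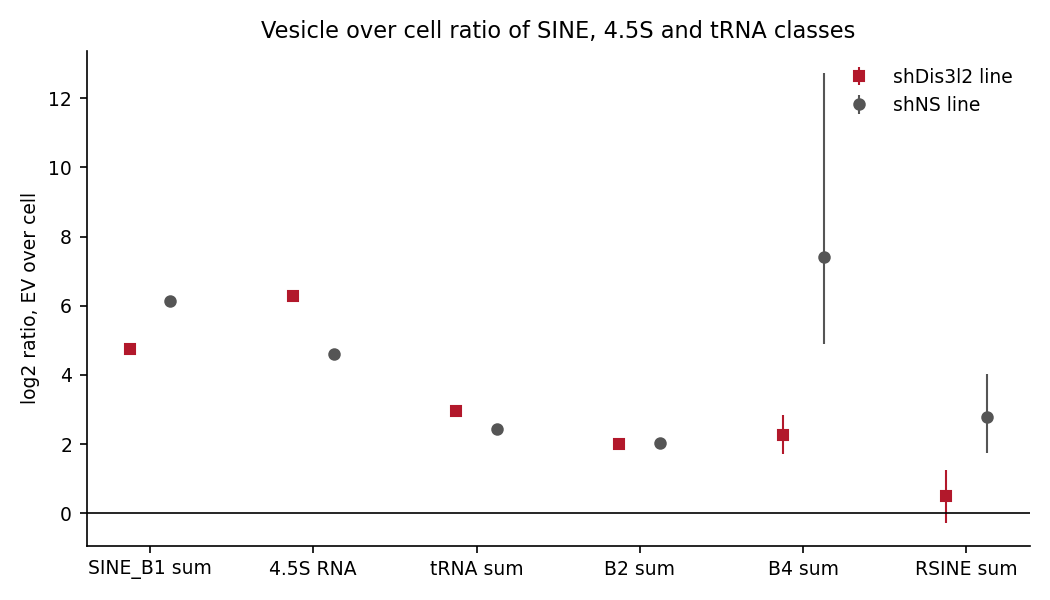
Log2 ratio of scaled counts, EV over cell library, for the SINE_B1, B2, B4 and RSINE sums, 4.5S RNA and the sum of tRNA rows, in the shDis3l2 line (squares) and the shNS line (circles); bars are 95% intervals for counting error. The B2 sum lies at 2.01 and 2.04, well under the B1 sum at 4.74 and 6.14.

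Rows of B1, 4.5S RNA and tRNAs, whose own genes are transcribed by RNA polymerase III, were set beside B2, and its EV over cell ratio was below those of B1 and 4.5S RNA in both lines. The log2 ratio of EVs over cells was 2.01 for the B2 sum in the shDis3l2 line and 2.04 in the shNS line. The sum of the 7 SINE_B1 rows stood at 4.74 and 6.14 in the same lines, 4.5S RNA at 6.27 and 4.61, and the sum of named tRNA rows at 2.96 and 2.45. The B1 sum lay mostly in the rows named SINE_B1_Mus2 and the B2 sum in SINE_B2, so thinner rows can differ. SINE_B2_Mm2 had at least 6.15 in the shDis3l2 line, above the B1 sum, and 4.94 in the shNS line, below it. In the fit over all libraries, 142 of 197 unspliced tRNA rows were higher and 8 lower, with a median log2 fold change of 2.31, and 3 of 7 SINE_B1 rows were higher and 0 lower.

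Shares within a library need no scaling between libraries. Of B1 and B2 counts together, B2 made up 6.13% in D389N EVs (95% exact binomial interval 5.92% to 6.34%), 7.95% in Dis3l2r EVs, 10.4% in Vector EVs, 16.5% in shDis3l2 EVs and 11.0% in shNS EVs, against 56.6% (55.0% to 58.3%) in shDis3l2 cells and 67.7% (65.8% to 69.7%) in shNS cells. B2 was thus the smaller sum in every EV library and the larger one in both cell libraries. Most B1 counts lay in 2 rows named SINE_B1_Mus2, with 8261 and 23565 of 32391 in shNS EVs. Each other SINE_B1 row had at most 477 counts in any library, below the B2 sum of every library. The low B2 share in EVs therefore rests on those 2 rows. The mean share was 10.4% in EVs and 62.2% in cells. An exact two-sided permutation test over the 7 libraries gave p = 0.0952, the smallest value that 5 against 2 libraries allow, and 0.0952 after adjustment over the 3 shares tested.

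**Figure D3:**
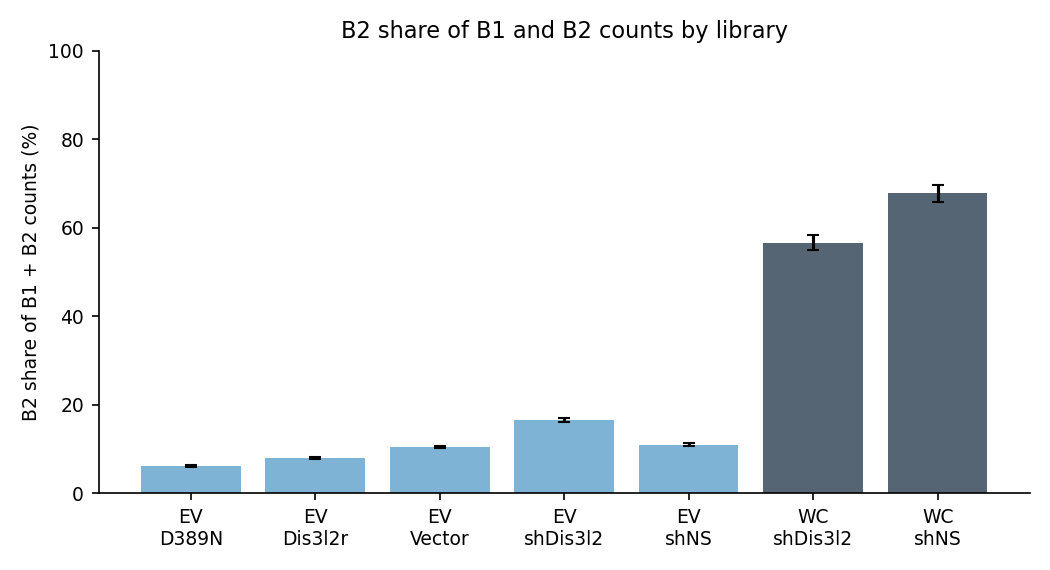
B2 share of the summed B1 and B2 counts in each library (percent, axis from 0), with 95% exact binomial intervals for counting error; EV libraries are light and whole-cell (WC) libraries dark. EV shares run from 6.13% to 16.5% and cell shares are 56.6% and 67.7%.

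The other shares tested were B2 against 4.5S RNA and B4 against B2. B2 held 0.176% to 0.377% of B2 and 4.5S counts in EVs, against 6.74% and 2.05% in shDis3l2 and shNS cells. B4 held 2.18% to 7.81% of B2 and B4 counts in EVs, against 1.84% and 0.0660% in the same cells. Neither pair of ranges overlapped, and both tests had the same exact permutation p of 0.0952. By contrast the ratio of B2 to tRNA counts overlapped between compartments. Per 100000 tRNA counts there were 19.6 B2 counts in D389N EVs, 26.0 in Dis3l2r EVs, 27.4 in Vector EVs, 35.6 in shDis3l2 EVs and 22.4 in shNS EVs, against 68.8 in shDis3l2 cells and 29.8 in shNS cells. Per 1000 intron-piece counts B2 stood at 0.323 to 0.632 in EVs and at 0.307 and 0.280 in shDis3l2 and shNS cells. The EV and cell values thus came close to each other on that scale. Per 100000 transcript counts they were far apart, at 74.3 to 127 in EVs and 6.89 and 4.75 in the same cells. Per 1000 exon-piece counts they overlapped, at 8.01 to 18.0 in EVs and 3.64 and 55.5 in those cells. The part of intron-derived reads in the B2 rows was not tested.

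The next question was what knockdown of Dis3l2 did to these RNAs in cells. SINE_B2 had 62.6 CPM in shDis3l2 cells and 40.7 CPM in shNS cells, and after TMM scaling was 1.85-fold higher in the knockdown library, a log2 ratio of 0.89 (0.79 to 0.98). This was inside the 2-fold rule, so 0 of the 1 member measured was called, where 35.7% of all 513 rows measured were. For the B2 sum the log2 ratio was 0.88, and between 0.53 and 1.20 under the other scalings. The value of 1.20, without the most abundant cell row, is past the 2-fold rule, so the absence of a call depends on the scaling. SINE_B4 had 38 counts in shDis3l2 cells against 1 in shNS cells, a log2 ratio of 5.71 (3.14 to 11.05), and RSINE1 had 35 against 9, a log2 ratio of 2.42 (1.34 to 3.66). SINE_B2_Mm2 went the other way, with 0 counts against 5. These 3 rows were under 100 counts and were not called. The lower detection of transcript rows in shNS cells moves with the low B4 and RSINE1 counts there, and its part in them was not tested.

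The other RNA classes of the same cells did not follow one direction. The SINE_B1 sum had a log2 ratio of 1.57 in shDis3l2 over shNS cells, whereas 4.5S RNA stood at -0.91 and the tRNA sum at -0.33. The B2 share of B2 and 4.5S counts was 6.74% (6.46% to 7.03%) in shDis3l2 cells and 2.05% (1.95% to 2.16%) in shNS cells. That shift is beyond counting error, but each value is from 1 library.

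Knockdown was then compared in EVs. SINE_B2 had 246 CPM in shDis3l2 EVs and 164 CPM in shNS EVs. After TMM scaling it was 1.60-fold higher in the knockdown library (log2 ratio 0.68, 0.62 to 0.74). SINE_B2_Mm2 had a log2 ratio of 0.76 (0.36 to 1.16) and SINE_B4 of 0.40, whose interval reached 0. RSINE1 had 28 counts in shDis3l2 EVs against 40 in shNS EVs, and the second SINE_B3 row had 4 against 20. None of the 3 members measured passed the 2-fold rule, where 11.2% of all rows measured did. The direction of the B2 sum was the same under all 4 other scalings, with log2 ratios from 0.53 to 0.61.

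**Figure D4:**
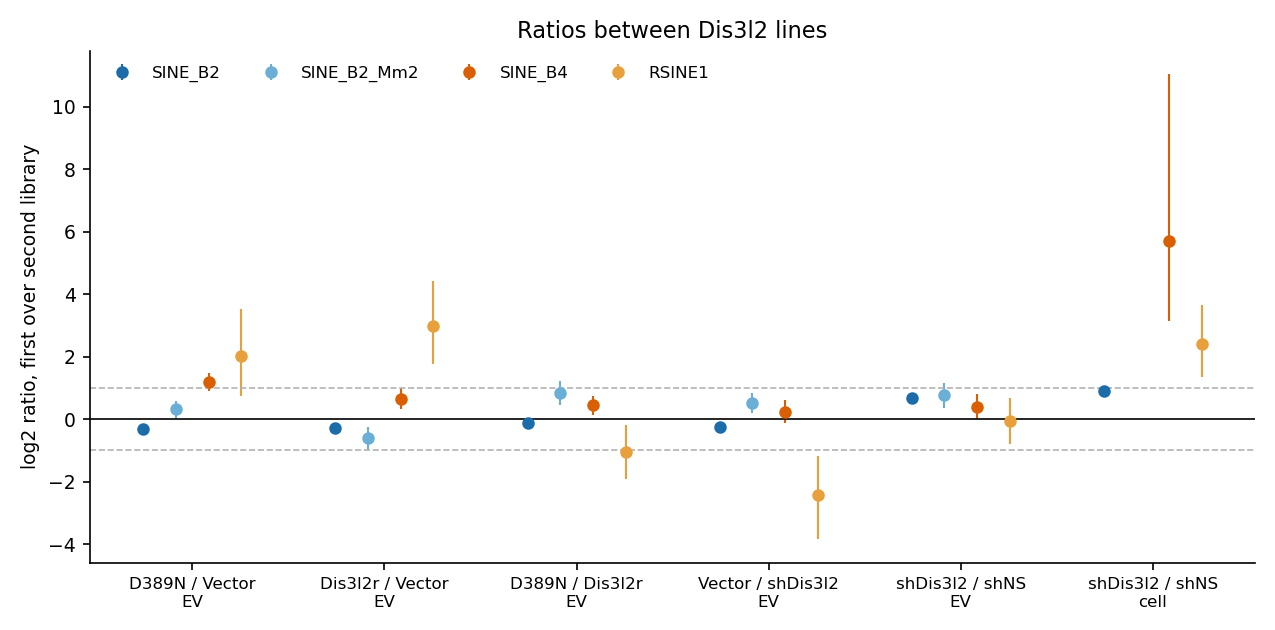
Log2 ratios between libraries of the Dis3l2 lines after TMM scaling for SINE_B2, SINE_B2_Mm2, SINE_B4 and RSINE1; bars are 95% intervals for counting error, dashed lines mark a 2-fold difference, and SINE_B2_Mm2 has no point in cells because the shDis3l2 cell library had 0 counts. With this scaling SINE_B2 stays within 2-fold in all 6 pairs, and the SINE_B4 interval in cells rests on 1 count in shNS cells.

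A pair with no difference in Dis3l2 activity by its labels shows how far such libraries can lie apart. Vector EVs against shDis3l2 EVs, both from knockdown cells without a working transgene, differed in SINE_B2 by a log2 ratio of -0.25 (-0.31 to -0.19) and in SINE_B2_Mm2 by 0.52 (0.19 to 0.85). RSINE1 had 7 counts in Vector EVs against 28 in shDis3l2 EVs, a log2 ratio of -2.42 (-3.85 to -1.19). Again 0 of the 3 members measured were called, where 23.9% of all rows were.

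The transgenes were each set against the same Vector library, so the comparisons share it. In Dis3l2r EVs, SINE_B2 had a log2 ratio of -0.27 (-0.34 to -0.20), close to the -0.30 (-0.37 to -0.24) of D389N EVs. SINE_B2_Mm2 stood at -0.61 (-0.98 to -0.24) with Dis3l2r and at 0.31 (0.03 to 0.59) with D389N. SINE_B4 was at 0.66 (0.32 to 0.99) with Dis3l2r and at 1.19 (0.90 to 1.48) with D389N, where it was called. RSINE1 rested on 7 counts in Vector EVs, with 31 counts in Dis3l2r EVs and 20 in D389N EVs. The rule thus called 0 of 3 measured members with Dis3l2r, where 32.1% of all rows were called, and 1 of 3 with D389N, where 23.2% were. The B4 call with D389N was lost under 3 of the 4 other scalings, at 0.94 with totals of the whole-RNA rows, 0.96 without the most abundant cell row and 0.88 with totals of all rows, and held at 1.15 with DESeq2 size factors.

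The catalytic mutant was also set directly against the active protein. In D389N EVs against Dis3l2r EVs, SINE_B2 had a log2 ratio of -0.13 (-0.21 to -0.05), SINE_B2_Mm2 of 0.83 (0.45 to 1.21) and SINE_B4 of 0.44 (0.14 to 0.75). None of the 3 passed the 2-fold rule, where 24.5% of all rows did. The B2 sum stood at -0.08 and changed sign, to 0.08, with DESeq2 size factors. Under 100 counts, the second SINE_B3 row had 75 counts in D389N EVs against 10 in Dis3l2r EVs (log2 ratio 2.50, 1.54 to 3.62), and SINE_ID had 51 against 2 (4.26, 2.34 to 7.35).

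The 5 EV libraries were last grouped by the Dis3l2 state assigned from their titles, with D389N, Vector and shDis3l2 as without active Dis3l2 and Dis3l2r and shNS as with it. SINE_B2 had 137, 202 and 246 CPM without active Dis3l2 and 176 and 164 CPM with it, and the classes overlapped. Its log2 fold change was 0.42 (SE 0.420, edgeR adjusted p = 0.818). SINE_B2_Mm2 had 9.55, 9.18 and 6.57 CPM without and 6.32 and 4.14 CPM with active Dis3l2. On this CPM scale, without TMM, these values did not overlap, and how many of all rows part the classes in this way was not counted. The nearest, shDis3l2 and Dis3l2r EVs, rest on 121 and 85 counts. Their 95% Poisson intervals, 5.45 to 7.85 and 5.05 to 7.82 CPM, did overlap. Its log2 fold change of 0.97 (SE 0.527, edgeR adjusted p = 0.669) did not pass the test. SINE_B4 stood at 0.43, the second SINE_B3 row at 1.11 and RSINE1 at -0.87. edgeR called 0 of the 5 members tested, and 0 had an unadjusted p under 0.05; DESeq2 also called 0. The same fit called 0.174% of all 575 rows tested, so few rows of any kind separated the classes. These p-values measure the spread between genotypes, which is all that 1 library a genotype gives.

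The order of the B2 sum over the libraries, from high to low, was shDis3l2 EVs (253 CPM), Vector EVs (211), Dis3l2r EVs (182), shNS EVs (168), D389N EVs (147), shDis3l2 cells (62.6) and shNS cells (40.9). On this CPM scale the 95% Poisson intervals of all neighbours were separate. The nearest were Dis3l2r EVs at 175 to 190 CPM and shNS EVs at 163 to 174 CPM. After TMM scaling D389N EVs came near Dis3l2r EVs (log2 ratio -0.08, -0.16 to -0.01), and with DESeq2 size factors they stood above (0.084). No spread between replicates is known either, so the order holds for these libraries and this scale only.

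Among 203 named rows outside the members with at least 100 counts, of which 183 were tRNAs, 14 spliced tRNAs, 5 SINE_B1 rows and 1 4.5S RNA, 3 tRNAs had the pattern closest to the B2 sum, by the root mean square difference of log2 CPM centred over the 7 libraries. Since nearly all candidates were tRNAs, that tRNAs came closest says little. These were tRNA-Phe-GAA-1-1 at 0.26, tRNA-Ser-CGA-3-1 at 0.27 and tRNA-Ser-CGA-1-1 at 0.34. In shDis3l2 and shNS cells the centred log2 CPM was -1.05 and -1.66 for the B2 sum and -1.33 and -1.47 for tRNA-Phe-GAA-1-1. In shDis3l2 EVs, where B2 was highest, it was 0.96 for the B2 sum and 0.66 for that tRNA.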

How the data were processed

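The authors deposited 1 table of estimated counts (expected read counts, unscaled) for 7 libraries. The submitters' processing notes name Salmon, Novoalign, cutadapt and UMI-tools, and the builds mm10 and GRCm38, without versions, roles or order; the protocol adds a random tag for deduplication, but no source used here states that it was applied to these counts. Row lengths, repeat coordinates and strand of counting are not given either, so levels are not per length and no sequence is printed. Of 580839 rows, the 3894 that are not exon, intron or UTR pieces were used. Counts were rounded for intervals and fits. EV against cell pairs were scaled by totals of these rows, other pairs by TMM. Fits used edgeR 4.0.16 (filterByExpr, Benjamini-Hochberg adjusted p threshold 0.05), with DESeq2 1.42.0 as an alternative, limma 3.58.1 loaded by edgeR, R 4.3.3, scipy 1.17.1, numpy 2.4.6, matplotlib 3.10.9, Python 3.11.15 and pandas 2.3.3. The EV against cell fit had the Dis3l2 class as covariate and unscaled totals; the class fit used TMM. Fits and intervals were tested on simulated data. Intervals and the 3-count floor cover counting error only. All member rows were described, and the rows most like the B2 sum were named by root mean square difference with 0.5 counts added. The members, lists and tests were chosen with earlier results of these data known. Alternatives were other scalings, count minimums of 20 and 500, no filter, DESeq2, rows with the same counts entered once, each library left out, and the 4 parental libraries.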

Additional observations from a re-analysis of the deposited data

Results flagged for a closer look

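Among the 5 EV libraries, the second SINE_B3 row and SINE_ID each stood apart in D389N EVs, by a gap to the nearest library that exceeded Dixon's limit of 0.71 of the whole range. The SINE_B3 row was at 3.58 CPM in D389N EVs and at 0.217 to 0.845 CPM in the other EVs, and the B3 sum, 3.58 CPM there, stood apart with it. SINE_ID was at 2.42 CPM in D389N EVs and at 0 to 0.176 CPM in the other EVs. SINE_B1_Mur3, another thin repeat row, had 41 counts in D389N EVs and 0 to 9 in the other 6 libraries. Other thin SINE_B1 rows did not stand highest there. In D389N EVs SINE_B1_Mur4 had 24 counts (27 to 67 in the other EVs), SINE_B1_Mm 53 (25 to 80) and SINE_B1_Mus1 14 (0 to 19). The D389N library also had the fewest intron pieces above 0 of the EV libraries, 54657 against 67763 to 95927, and its part in these values was not tested. The 5 libraries are different genotypes, and chance sets a library apart by this limit in about 1 in 20 groups. In all 10 rows and sums were looked at, several of them nested, and over all 659 whole-RNA rows with at least 20 EV counts 10.8% passed the limit in some library and 2.43% with D389N EVs highest.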

How the results depend on the processing

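The EV against cell log2 ratio of the B2 sum was moved by scaling but stayed positive. In the shDis3l2 line it was 1.54 with TMM, 2.74 with DESeq2 size factors, 2.30 with totals of all rows and 1.17 without the most abundant cell row; in the shNS line it was 1.79, 3.14, 2.31 and 1.81. For knockdown in cells it was 0.61 with totals, 0.53 with totals of all rows and 1.20, past the 2-fold rule, without the most abundant cell row. For knockdown in EVs it was 0.59 with totals, 0.61 with DESeq2 size factors, 0.53 with totals of all rows and 0.56 without that row. For Dis3l2r against Vector the same 4 scalings gave -0.21, -0.51, -0.39 and -0.12. For D389N against Vector it was -0.53 with totals, -0.58 with totals of all rows and -0.51 without that row. For D389N against Dis3l2r it was -0.31, -0.20 and -0.39, and reversed to 0.084 with DESeq2 size factors. Vector against shDis3l2 came to -0.095 with DESeq2 size factors.

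In the fit over all libraries, SINE_B2 ranged from 1.64 to 2.06 when each library was left out, and without shNS cells (1.64, edgeR adjusted p = 0.0515) it was no longer called; over its 14 alternatives the values ran from 1.25 to 3.06. SINE_B4 was also no longer called without the most abundant cell row (3.37, edgeR adjusted p = 0.0597). RSINE1 and its sum ranged from -0.24 (without shNS cells) to 3.01 with libraries left out, and the RSINE ratio in the shDis3l2 line turned to -0.35 without the most abundant cell row. In the fit on Dis3l2 class, SINE_B2 ranged from 0.06 to 0.58 with libraries left out. There the second SINE_B3 row ranged from -1.61 to 1.68 and the B3 sum from -1.29 to 1.42, both lowest without D389N EVs. SINE_B4 and the B4 sum ranged from -0.22 to 1.03, and were below 0 without shNS EVs (-0.22) and without D389N EVs (-0.11). The causes were not tested.

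At a minimum of 20 counts, the members called are given here beside the share of all rows called. For EVs against cells they were 3 of 4 (90.0%) in shDis3l2 and 5 of 5 (90.7%) in shNS. For knockdown they were 2 of 3 (39.3%) in cells and 1 of 5 (23.3%) in EVs. Against Vector they were 1 of 4 (39.5%) for Dis3l2r and 4 of 6 (33.0%) for D389N. D389N against Dis3l2r gave 3 of 6 (35.6%), and Vector against shDis3l2 gave 1 of 4 (32.4%). At 500 counts SINE_B2 alone was measured; it was called for EVs against cells in shDis3l2 (92.1% of all rows) and shNS (92.5%), and in none of the other 6 pairs (7.25% to 36.5%). The labels number no replicates, but EV and cell libraries of the 2 parental lines can be paired by line. With the line as replicate block and 1 residual degree of freedom, SINE_B2 stood at 1.99 (SE 0.649, edgeR adjusted p = 0.00347). SINE_B2_Mm2 (6.52) and SINE_B4 (4.29) stayed called, but both again passed the filter through EVs, so their direction was nearly fixed. The second SINE_B3 row was not tested there. Depth limits the B3 rows, SINE_ID and RSINE1, which had under 100 counts in every library.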

Other observations

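The B2 and B1 sums had different orders among EV libraries. The B2 sum was lowest in D389N EVs (147 CPM) and highest in shDis3l2 EVs (253 CPM), while the SINE_B1 sum was highest in D389N EVs (2246 CPM) and lowest in shDis3l2 EVs (1283 CPM). Dis3l2r, Vector and shNS EVs lay between these on both scales, with 182, 211 and 168 CPM for B2 and 2111, 1822 and 1369 CPM for B1. These orders are on the CPM scale, and the place of D389N EVs in the B2 order moved with the scaling. The difference in order was noticed in 5 libraries of different genotypes and was not tested.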
